A study of Arabidopsis thaliana with 12 samples.

Results

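A set of 43 Arabidopsis genes had higher mean signals in seedlings without the chromatin remodeler BRAHMA (BRM), both where the histone methyltransferase CURLY LEAF (CLF) was present and where it was mutated. The genes were chosen from 13356 measured genes by their signals in these same arrays. In genotype means, a gene had to be at least 1.5-fold higher (0.58 on the log2 scale) in brm-1 than in Col, and by the same margin higher in brm-1 clf-29 than in clf-29. Its clf-29 mean had to lie within 1.5-fold of its Col mean on either side, its highest genotype mean had to be at least 7.5, and every brm-1 array had to lie above every Col array. SWEET4, SAG29 and genes encoded in the plastid or mitochondrion were left out beforehand, and none of them met the thresholds. Each step narrowed the set: 1509 genes passed the first difference, and 417, 210, 52 and 43 probe sets remained after the second difference, the limit on clf-29, the minimum level and the order of the arrays.

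BRM is an ATPase of SWI2/SNF2 complexes, which use ATP to slide or evict nucleosomes, and remodelers of this class can both open and close genes. CLF is a catalytic subunit of the Polycomb complex that trimethylates lysine 27 of histone H3 (H3K27me3), a mark of silent genes. In flies and mammals BRM is classed with the Trithorax proteins, which oppose Polycomb silencing, so a gene that is higher without BRM runs against the direction for which the protein is best known. A comparison of brm-1 with Col asks which genes depend on BRM when CLF is present, and a comparison of brm-1 clf-29 with clf-29 asks the same when CLF is mutated.

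RNA came from whole seedlings, 14 days old, of 4 genotypes in the Columbia background with 3 biological replicates each, hybridised to 12 Affymetrix ATH1 arrays. The double mutant was brm-1 clf-29, the single mutants were brm-1, a T-DNA null allele of BRM, and clf-29, a T-DNA allele of CLF, and the wild type was Col. The brm-1 clf-29 plants are described as smaller than either single mutant, and in whole seedlings a change in the number of cells of a type and a change in RNA per cell cannot be told apart. Values are log2 MAS5 signals, and the array medians lay between 7.535 and 7.655. Bacterial control probe sets, which have no target in the plant, had a 95th percentile of 4.71, taken here as the background. Arrays numbered 3 stood apart in all genotypes: deviations from the genotype means correlated by 0.082 to 0.1617 between arrays numbered 3, against -0.029 to 0.0569 between arrays that shared the number 1 or 2. No probe set of BRM or CLF carried a gene name, so the genotypes were not checked against the mutated genes here. Of 16 marker genes of tissues, 5 were measured: RCA and LHCB4.1 for green tissue, EXPA7 and EXPA18 for root hairs and UFO for flowers, none of them for seeds or senescing leaves. UFO was under the background in 3 of the 4 genotypes, and none of the 5 passed the test in brm-1 against Col or in brm-1 clf-29 against clf-29. RCA (rubisco activase), a marker of green tissue, averaged 14.6 in brm-1 clf-29, 14.5 in brm-1, 14.6 in clf-29 and 14.3 in Col.

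The plot of all 43 genes by array shows each signal relative to the Col mean of its gene. The 6 arrays without BRM lay mostly above the 6 arrays with BRM. In 22 of the 43 genes all 6 of the first lay above all 6 of the second, as in 1.08% of all genes. The rule itself asked for every brm-1 array above every Col array, and its thresholds favour the rest of this order. The median of the genotype means of the 43 genes was 8.89 in brm-1 clf-29, 8.98 in brm-1, 8.03 in clf-29 and 7.92 in Col. Over all genes that median was 7.09 in brm-1 clf-29, 7.08 in brm-1, 7.15 in clf-29 and 7.18 in Col. M17, whose Col and clf-29 means lay under the background, is left out of the ranges that follow. In the other 42 genes the difference between brm-1 and Col ran from 0.59 to 2.29 with a median of 0.84, beside a median of -0.04 over all genes. Between brm-1 clf-29 and clf-29 it ran from 0.59 to 1.76 with a median of 0.82, beside -0.01. These are the values that chose the genes, so they describe the set and were not tested.

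**Figure D1:**
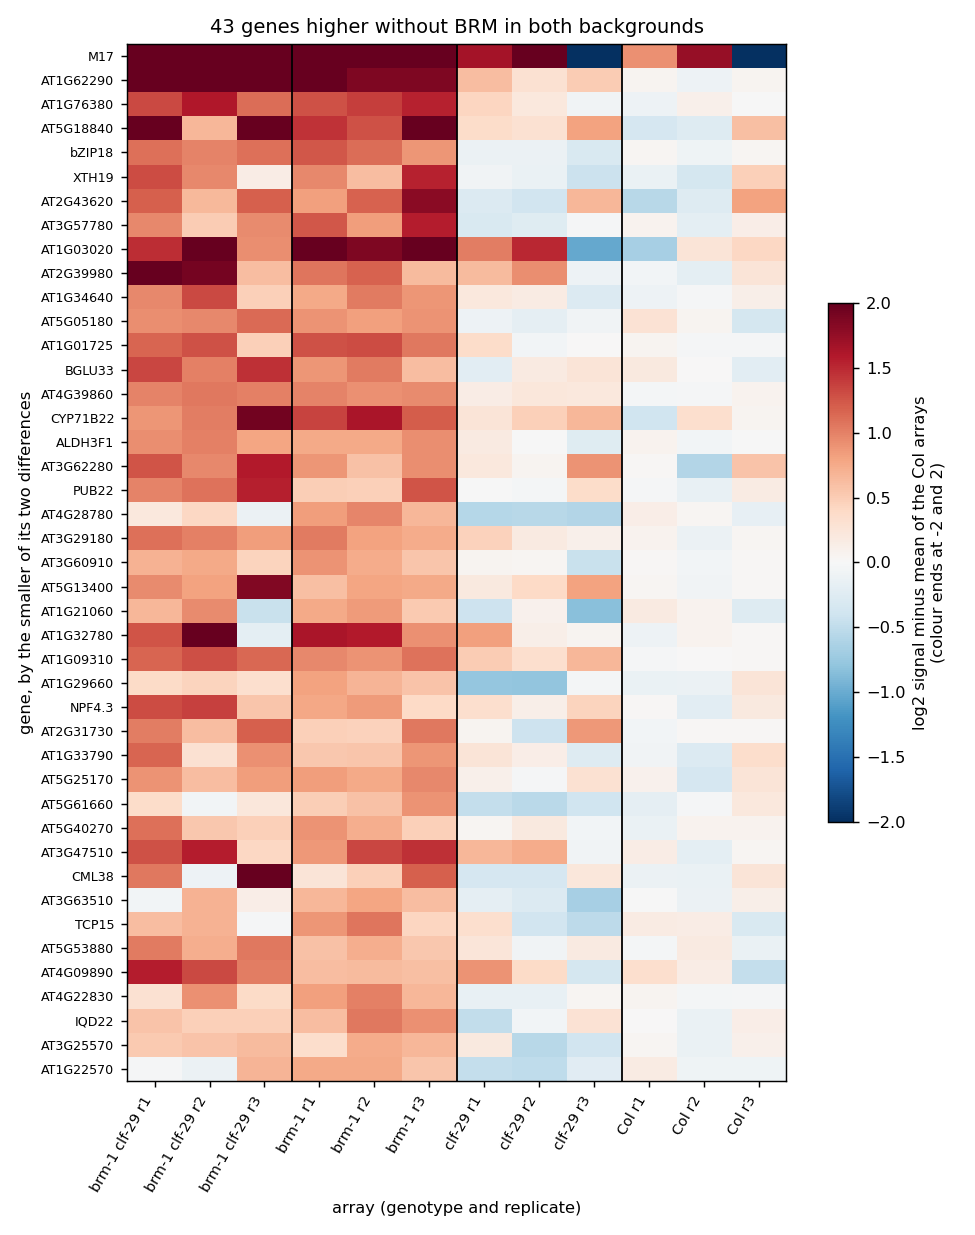
Colour gives the log2 signal of each of the 43 genes on each of the 12 arrays minus the mean of that gene's 3 Col arrays. From left to right the genotypes are the double mutant, brm-1, clf-29 and Col, with replicates r1 to r3, and genes run down by the smaller of their differences without BRM. Red fills most of the 6 arrays on the left, and 22 genes have all 6 of those arrays above all 6 arrays on the right. The rule asked for every brm-1 array above every Col array, and its thresholds favour the rest of that order.

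M17 (AT2G41260), a late embryogenesis abundant protein gene of seed maturation, had the lowest Col mean of the set, and its place in the set rested on signals near the background. Its signals were 6.93, 6.03 and 5.18 in brm-1, against 3.94, 4.76 and 0.36 in Col. They were 8.90, 8.91 and 5.43 in brm-1 clf-29, against 4.69, 5.73 and -0.47 in clf-29. The brm-1 clf-29 and clf-29 arrays overlapped, and the arrays numbered 3 were the lowest in every genotype. The Col and clf-29 means, 3.02 and 3.32, lay under the background, so no fold is given against them. The brm-1 mean lay 2.53-fold and the brm-1 clf-29 mean 8.21-fold over the background percentile, which is no minimum of the difference. It was also the 1 gene that no choice on the arrays of only 2 replicate numbers picked out. Its fitted differences, which are not measured folds, rested on the lowest arrays. That of brm-1 and Col was 1.70 without Col replicate 3 and 3.03 with it, and that of brm-1 clf-29 and clf-29 was 2.54 without clf-29 replicate 3 and 4.43 with it. M17 was the only measured gene of a 16-gene list of seed maturation genes, and of 15 genes of the response to abscisic acid the only measured one, COR15A, a cold- and abscisic acid-induced chloroplast protein gene, was -0.90 ± 0.31 (SE, limma adjusted p = 0.214) in brm-1 against Col. The seed maturation programme as a whole therefore could not be followed in these genes.

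Of the 43 genes, 11 carry a gene name in the annotation used here and 32 a locus number alone, for which no role is given. Transcriptional regulators were represented by bZIP18 and TCP15. bZIP18 (AT2G40620), a basic leucine zipper transcription factor, was among the tightest members. It had signals of 9.21, 9.08 and 8.84 in brm-1, against 8.01, 7.87 and 8.01 in Col. In the CLF mutant background it had 9.06, 8.96 and 9.06 in brm-1 clf-29, against 7.84, 7.84 and 7.66 in clf-29. All arrays without BRM lay above all arrays with BRM, and the differences were 1.08 and 1.25 (2.11-fold and 2.37-fold). TCP15 (AT1G69690), a class I TCP factor that acts on cell proliferation, was less separated. It averaged 9.05 ± 0.33 in brm-1 and 8.25 ± 0.27 in Col, and 8.68 ± 0.40 in brm-1 clf-29 and 8.06 ± 0.47 in clf-29 (SD, n = 3 each). One clf-29 array at 8.59 lay above a brm-1 clf-29 array at 8.22.

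Enzymes of the cell wall and of metabolism made up another part of the named genes. XTH19 (AT4G30290), a xyloglucan endotransglucosylase/hydrolase that cuts and rejoins wall polymers, had 10.77, 10.43 and 11.36 in brm-1, against 9.69, 9.46 and 10.30 in Col. It had 11.12, 10.78 and 9.97 in brm-1 clf-29, against 9.74, 9.69 and 9.38 in clf-29. Neither pair overlapped, although the Col array numbered 3 lay above a brm-1 clf-29 array. BGLU33 (AT2G32860), a beta-glucosidase, had 9.26, 9.42 and 9.0 in brm-1, against 8.57, 8.39 and 8.17 in Col, and 9.71, 9.38 and 9.84 in brm-1 clf-29, against 8.17, 8.55 and 8.63 in clf-29. Its lowest array without BRM was above its highest array with BRM. CYP71B22 (AT3G26200), a cytochrome P450, averaged 9.38 ± 0.21 in brm-1 and 7.98 ± 0.37 in Col (2.63-fold), and 9.26 ± 0.57 in brm-1 clf-29 and 8.45 ± 0.20 in clf-29 (1.76-fold). ALDH3F1 (AT4G36250), an aldehyde dehydrogenase and one of the brightest members, averaged 10.94 ± 0.10 in brm-1 and 10.13 ± 0.06 in Col, and 11.04 ± 0.11 in brm-1 clf-29 and 10.10 ± 0.21 in clf-29. Both genes had all arrays without BRM above all arrays with BRM.

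Signalling and transport were represented by 4 named genes. PUB22 (AT3G52450), a U-box ubiquitin ligase that restrains pattern-triggered immunity, had 7.84, 7.83 and 8.61 in brm-1, against 7.33, 7.21 and 7.52 in Col. It had 8.34, 8.44 and 8.91 in brm-1 clf-29, against 7.34, 7.32 and 7.72 in clf-29, and the arrays with and without BRM did not overlap. CML38 (AT1G76650), a calmodulin-like calcium sensor, was the most scattered of the 4. It had 8.63, 8.84 and 9.56 in brm-1, against 8.26, 8.23 and 8.62 in Col. It had 9.42, 8.27 and 10.78 in brm-1 clf-29, against 8.04, 8.03 and 8.59 in clf-29. The lowest brm-1 clf-29 array fell within the clf-29 arrays, and in all 4 genotypes the array numbered 3 was the highest. IQD22 (AT4G23060), a calmodulin-binding IQ-domain protein, averaged 8.26 ± 0.22 in brm-1 and 7.40 ± 0.14 in Col, and 7.91 ± 0.06 in brm-1 clf-29 and 7.32 ± 0.39 in clf-29. NPF4.3 (AT1G59740), of the family of nitrate and peptide transporters, averaged 8.39 ± 0.24 in brm-1 and 7.71 ± 0.20 in Col, and 8.78 ± 0.45 in brm-1 clf-29 and 8.01 ± 0.17 in clf-29. Within its arrays numbered 3, NPF4.3 was only 0.11 higher in brm-1 clf-29 than in clf-29.

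**Figure D2:**
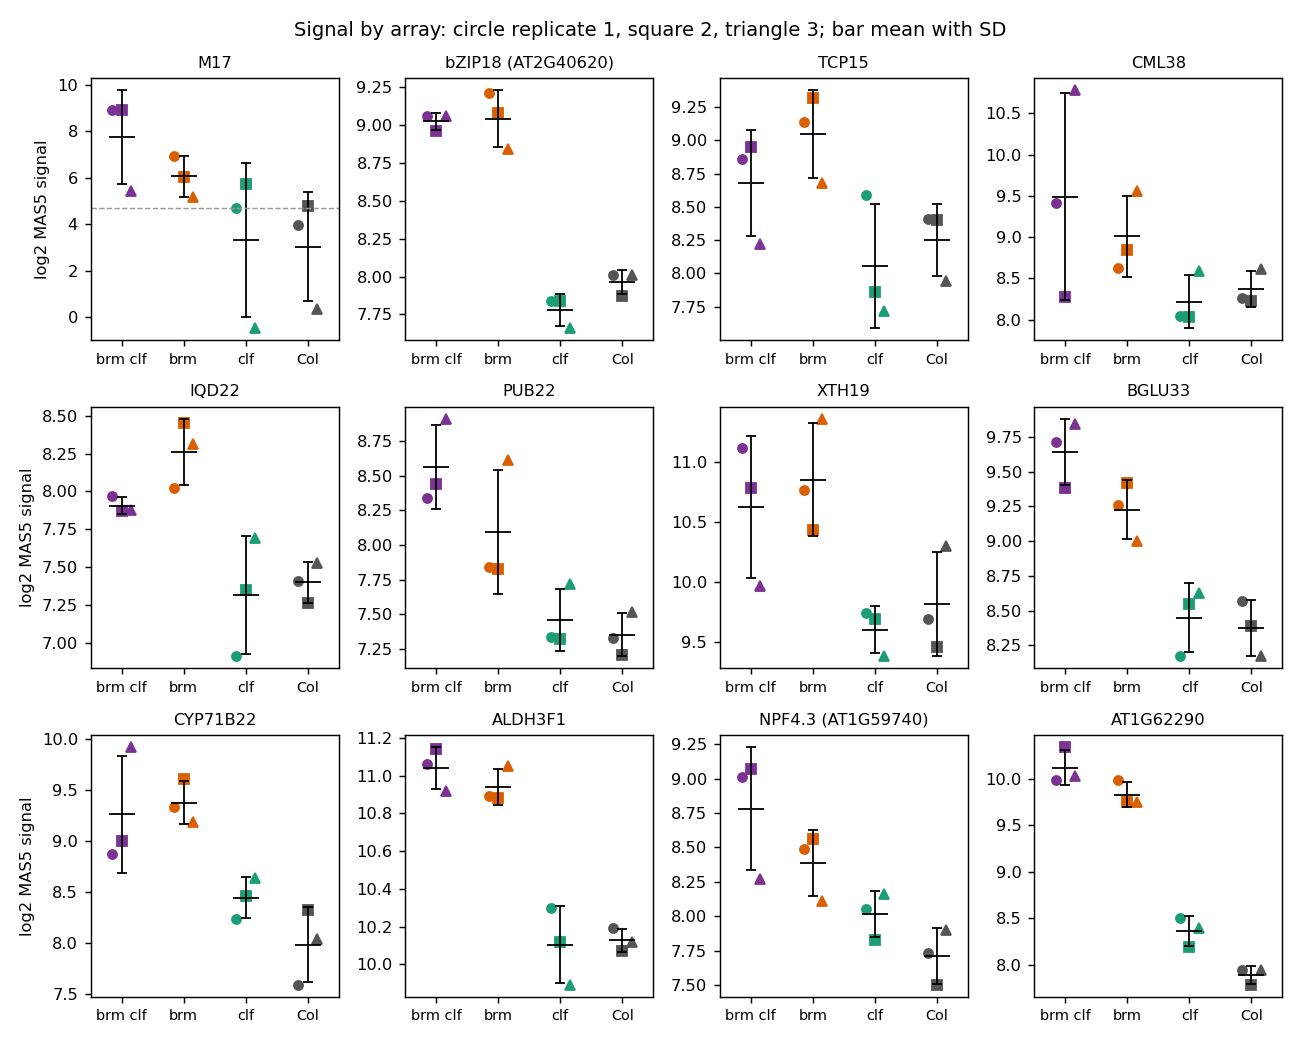
Log2 MAS5 signal of the 11 named genes and of AT1G62290 on each array, with the double mutant (brm clf) at the left, then brm-1, clf-29 and Col. Points are arrays (circle, square and triangle for replicates 1, 2 and 3), horizontal bars are means with SD (n = 3), the vertical axes differ between panels and do not start at 0, and the dashed line in the M17 panel is the background at 4.71. bZIP18, ALDH3F1 and AT1G62290 have separate arrays with and without BRM, while M17 and CML38 spread widely within a genotype.

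Among the genes known by locus only, AT1G62290 had the widest gap between arrays with and without BRM. Its signals were 9.99, 9.75 and 9.75 in brm-1, against 7.94, 7.78 and 7.94 in Col. They were 9.99, 10.34 and 10.03 in brm-1 clf-29, against 8.50, 8.19 and 8.39 in clf-29. The gap between the lowest array without BRM and the highest with it exceeded 1 on the log2 scale, and the folds were 3.85 and 3.39. AT1G76380 had 8.75, 8.87 and 9.03 in brm-1, against 7.38, 7.59 and 7.48 in Col, and 8.81, 9.08 and 8.60 in brm-1 clf-29, against 7.92, 7.69 and 7.41 in clf-29. AT4G39860 had 10.04, 9.96 and 9.99 in brm-1, against 9.0, 9.02 and 9.12 in Col, and 10.04, 10.10 and 10.05 in brm-1 clf-29, against 9.20, 9.28 and 9.25 in clf-29. These genes also had no overlap, and in AT4G39860 the SD lay between 0.03 and 0.06 in the 4 genotypes.

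AT5G05180 had 8.13, 8.06 and 8.13 in brm-1, against 7.53, 7.29 and 6.89 in Col, and 8.17, 8.20 and 8.37 in brm-1 clf-29, against 7.13, 7.06 and 7.17 in clf-29. AT1G01725 had 9.20, 9.22 and 8.98 in brm-1, against 7.97, 7.89 and 7.90 in Col, and 9.08, 9.20 and 8.39 in brm-1 clf-29, against 8.28, 7.87 and 7.93 in clf-29. AT1G34640 had 8.85, 9.12 and 8.97 in brm-1, against 7.99, 8.07 and 8.20 in Col, and 9.05, 9.40 and 8.56 in brm-1 clf-29, against 8.30, 8.25 and 7.81 in clf-29. Arrays with and without BRM were separate in all 3 genes, most narrowly in AT1G01725. AT3G57780 had 8.11, 7.70 and 8.44 in brm-1, against 6.94, 6.67 and 7.0 in Col, and 7.83, 7.37 and 7.81 in brm-1 clf-29, against 6.56, 6.63 and 6.84 in clf-29. It was separate too, at a lower level.

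Overlap between brm-1 clf-29 and clf-29 was found in 4 other genes of the first 15. AT5G18840 had 8.07, 7.91 and 8.67 in brm-1, against 6.29, 6.37 and 7.23 in Col, and 8.87, 7.29 and 8.66 in brm-1 clf-29, against 7.0, 6.94 and 7.43 in clf-29. AT2G43620 had 10.02, 10.38 and 11.01 in brm-1, against 8.65, 8.94 and 10.01 in Col, and 10.40, 9.85 and 10.40 in brm-1 clf-29, against 8.93, 8.82 and 9.87 in clf-29. In both, a single clf-29 array, the one numbered 3, lay above the lowest brm-1 clf-29 array. AT2G39980 had 9.72, 9.83 and 9.29 in brm-1, against 8.60, 8.46 and 8.91 in Col, and 10.83, 10.57 and 9.27 in brm-1 clf-29, against 9.29, 9.58 and 8.56 in clf-29. AT1G03020 had 7.84, 7.42 and 8.25 in brm-1, against 4.88, 5.80 and 5.96 in Col, and 7.02, 7.60 and 6.48 in brm-1 clf-29, against 6.57, 7.06 and 4.53 in clf-29. AT1G03020 had the most unequal differences of the 42 genes other than M17, 2.29 with CLF present and 0.98 with CLF mutated. Its clf-29 array numbered 3, at 4.53, lay under the background of 4.71. The other clf-29 arrays, at 6.57 and 7.06, lay within the range of the brm-1 clf-29 arrays. The second difference therefore rests largely on a signal near the floor. Over all 43 genes, 31 had every brm-1 clf-29 array above every clf-29 array, an order that the rule did not ask for but that its threshold favours, and 7.19% of all genes had it.

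The 28 further genes, from CYP71B22 down, had between 0.59 and 0.82 as the smaller of their 2 differences. AT1G09310 was the brightest of the set, at 14.02 ± 0.08 in brm-1 clf-29, 13.81 ± 0.10 in brm-1, 13.33 ± 0.17 in clf-29 and 12.83 ± 0.03 in Col (SD, n = 3 each). Just inside the threshold lay AT1G22570 (0.69 in brm-1 against Col and 0.59 in brm-1 clf-29 against clf-29), AT3G25570 (0.59 and 0.82) and IQD22 (0.86 and 0.59). Just outside it lay AT1G74070 (0.57 and 0.62), AT5G63410 (0.58 and 0.57) and AT1G67600 (1.5 and 0.57). Genes on either side of the threshold thus had nearly the same values. At least 2-fold differences in both backgrounds were found in 7 genes, and 25 were under 2-fold in both. By the limma fit, 21 of the 43 genes passed an adjusted p of 0.05 as higher in brm-1 than in Col (0.696% of all genes did) and 19 as higher in brm-1 clf-29 than in clf-29 (0.487%), counts that follow from how the genes were chosen.

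The next question was whether the difference that goes with BRM loss was of the same size with and without CLF. For 28 of the 43 genes both differences were within 0.25 of each other. The share of all genes this close is not given here, so the count is no particular trait of the set. The interaction, which is the difference of brm-1 clf-29 and clf-29 minus that of brm-1 and Col, ran in the 42 genes other than M17 from -1.31 in AT1G03020 to 0.63 in CML38, with a median of -0.04, 18 genes above 0 and 24 below. The limma test called none of the 43, and called 0% of all genes. At an unadjusted p under 0.05 it also passed none of the 43, and 5.65% of all genes. Both differences entered the rule, which set a lower bound on each and no limit on the interaction, so these counts describe the set. The standard error of the interaction had a median of 0.280, so its 95% interval reached a median of 0.608 to either side. It stayed within a 1.5-fold difference to either side for 8 genes, namely AT1G62290, bZIP18, AT4G39860, ALDH3F1, AT4G28780, AT3G29180, AT3G60910 and AT5G61660. For the other 35 genes a 1.5-fold difference between the backgrounds lay within the interval, and equal differences are not shown.

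**Figure D3:**
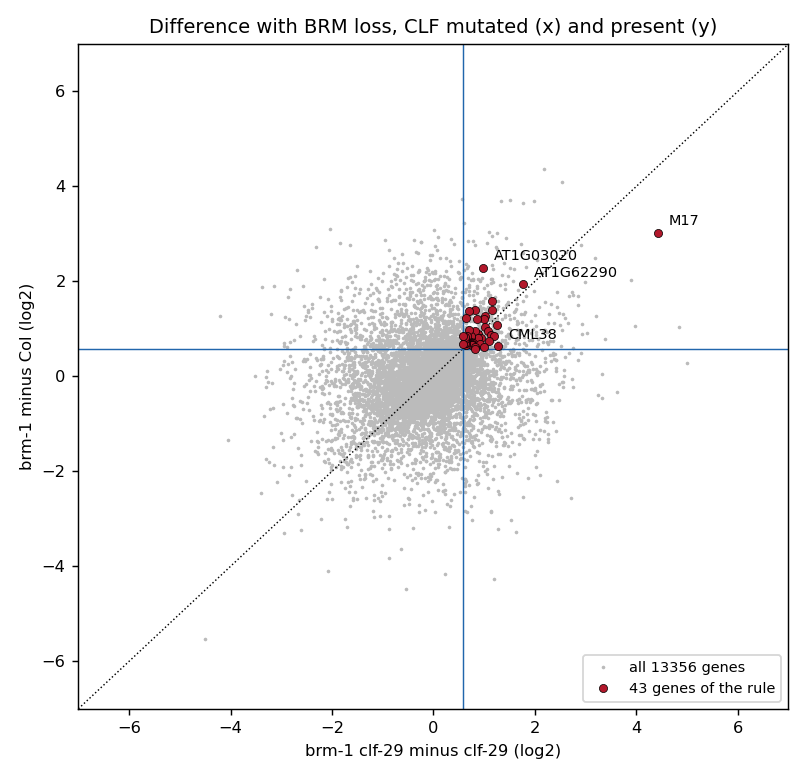
Difference of brm-1 and Col (vertical axis, log2) against the difference of brm-1 clf-29 and clf-29 (horizontal axis, log2) for 13356 genes in grey and the 43 genes in red. The blue lines mark the 1.5-fold threshold that defined the set, and the dotted line marks equal differences. The place of M17 rests on Col and clf-29 means under the background, and AT1G03020 stands above the dotted line.

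The levels in brm-1 clf-29 and in brm-1 were also set against each other. This difference is the sum of the interaction and of clf-29 minus Col. The rule limited clf-29 minus Col, and it used both parts of the interaction without limiting it. The values therefore describe the set and do not test it. The difference of brm-1 clf-29 and brm-1 had a median of -0.01, with 20 genes above 0, 22 below and 1 at 0. The highest genotype was brm-1 clf-29 for 21 genes and brm-1 for 22. None of the 43 passed the limma test, where 0.217% of all genes did. At an unadjusted p under 0.05 there were 4 higher and 4 lower, beside 9.77% of all genes in either direction. AT4G28780 came nearest among these. It had 8.36, 8.57 and 8.04 in brm-1 clf-29, against 8.98, 9.13 and 8.81 in brm-1, with no overlap (-0.65 ± 0.15, SE, limma adjusted p = 0.120). Its levels were 7.58 ± 0.02 in clf-29 and 8.15 ± 0.15 in Col, so the brm-1 clf-29 level was 0.17 above Col. AT5G61660 and AT1G22570 had a like order, with brm-1 clf-29 minus brm-1 at -0.48 and -0.51 and brm-1 clf-29 0.18 above Col in each. With replicate 3 as a batch term the limma test called AT4G28780 (adjusted p = 0.0142) and AT5G61660 (adjusted p = 0.0391), and without brm-1 clf-29 replicate 3 it called AT1G22570 (-0.76, adjusted p = 0.0423). In the other direction AT4G09890 had 9.18, 8.93 and 8.63 in brm-1 clf-29, against 8.23, 8.24 and 8.21 in brm-1 (0.69 ± 0.28, SE, limma adjusted p = 0.451). The rule itself limited the difference of clf-29 and Col, which ran from -0.57 to 0.51, with 26 genes above 0, 17 below and a median of 0.07.

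Since the genes were chosen on all 12 arrays, the choice was repeated on the arrays of 2 replicate numbers and read in the arrays of the number left out. With replicate 1 left out, 53 genes were chosen, and in the arrays numbered 1 both differences were at least 1.5-fold for 28 of them, 52.8% (95% Clopper-Pearson interval 38.6 to 66.7, for counting error over genes only). The interval takes the genes as independent, though all were read on the same arrays, so it gives no spread between replicates. With replicate 2 left out it was 25 of 56 genes, 44.6% (31.3 to 58.5). With replicate 3 left out it was 18 of 53 genes, 34.0% (21.5 to 48.3). Of all genes with a largest mean of at least 7.5, the shares were 1.51%, 1.55% and 1.7% in the same arrays. Both differences were above 0 for 51, 54 and 42 of the chosen genes, and their medians were 0.73, 0.81 and 0.71 for brm-1 minus Col and 0.78, 0.67 and 0.54 for brm-1 clf-29 minus clf-29. Of all genes with a largest mean of at least 7.5, both were above 0 for 27.9%, 32.5% and 26.1%. The arrays numbered 3 thus gave the lowest share and the smallest differences. Of the 43 genes, 17 were in all 3 of these choices, 20 in 2, 5 in 1 and 1, M17, in none. Leaving out replicate 3 of every genotype gave 53 genes, 28 of which were among the 43.

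**Figure D4:**
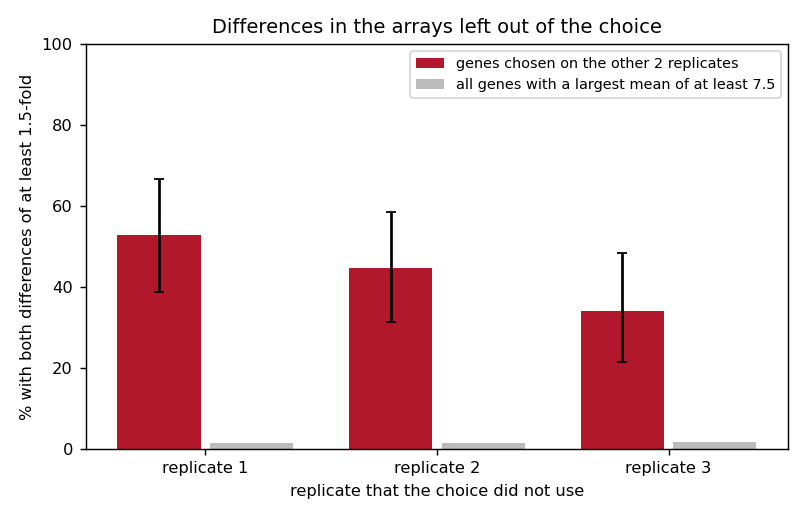
Bars give the share of genes (%) with both differences at least 1.5-fold in the arrays of 1 replicate number, which the choice had not used. Red bars are the 53, 56 and 53 genes chosen on the other arrays, with 95% Clopper-Pearson intervals for counting error, and grey bars are all genes with a largest mean of at least 7.5. The intervals take genes read on the same arrays as independent and give no spread between replicates. The red bars stand at 52.8%, 44.6% and 34.0%, the grey bars at 1.51% to 1.7%.

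Within replicate numbers the 43 genes had median differences of 0.76, 0.94 and 0.83 between brm-1 and Col in replicates 1, 2 and 3, and of 0.84, 0.95 and 0.80 between brm-1 clf-29 and clf-29. These arrays chose the genes, and the order asked of brm-1 and Col fixed the sign of the first difference, so the medians are a description. Over all genes they were -0.03, -0.01 and -0.06 for brm-1 against Col. AT1G32780 was -0.25 in replicate 3 for brm-1 clf-29 against clf-29. Small differences of this comparison were also found for AT3G63510 (0.13 in replicate 1), AT1G33790 (0.18 in replicate 2) and IQD22 (0.19 in replicate 3).

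The gene families of the named members were counted to see whether their relatives moved with them, and were put together after the members were known. Families were matched on annotated names, so relatives known by locus number alone were not counted. The members themselves, chosen for being higher, are left out of the counts. Over all genes, the brm-1 and Col comparison had 0.696% higher and 1.17% lower, and the double mutant and clf-29 comparison had 0.487% higher and 0.981% lower. None of the 8 other measured XTH genes, the 8 other PUB genes, the 11 other IQD genes and the 19 other bZIP genes passed the limma test in either comparison. Of 21 other BGLU genes none rose, and BGLU16 was lower in brm-1 than in Col (-0.69, limma adjusted p = 0.0130). Of 7 other ALDH genes none rose, and ALDH7B4 was lower in brm-1 (-0.76, adjusted p = 0.0102). ALDH7B4 also fell where CLF was mutated (-0.9). Of 10 other NPF transporters annotated as such by name, GTR1, a glucosinolate transporter, rose in brm-1 against Col (0.75, adjusted p = 0.00618). Members of the set with a locus number alone were not assigned to this family or kept out of it. No other CYP71 or CML gene rose, and where CLF was mutated CYP71B6 and CML41 fell. Among 91 other transcription factors 0 rose and 2 fell in brm-1 against Col, and where CLF was mutated 1 fell. Among 58 other cell wall enzymes 0 rose and 2 fell in brm-1 against Col, and where CLF was mutated 1 rose and 4 fell. Among 50 other ubiquitin ligases and F-box proteins none was called in brm-1 against Col, and where CLF was mutated 1 fell. Among 47 other transporters 3 rose and 1 fell in brm-1 against Col, with SWEET4 and SAG29, which the rule left out, among the 3, and where CLF was mutated 2 fell. No group held 3 or more of the 11 named genes, and the other 32 of the set could not be placed by name.

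Position was also examined, which the rule had not used. The 43 genes were spread over all nuclear chromosomes, with 14, 6, 9, 7 and 7 genes on chromosomes 1 to 5. No pair of them was adjacent, and the nearest pair, AT4G22830 and IQD22, was 24 genes apart in RefSeq gene order. Of 47 measured genes directly beside a member, 3 (6.38%) were at least 1.5-fold higher in brm-1 than in Col, beside 11.3% of all genes, and their median differences were 0.01 and 0.03. AT1G29670, beside AT1G29660, was the 1 neighbour (2.13%) past the threshold in both comparisons, at 0.70 and 0.81, where 3.12% of all genes were. XTH18, which lies beside XTH19 and encodes an enzyme of the same family, was 0.87 higher in brm-1 than in Col and 0.19 higher in brm-1 clf-29 than in clf-29. None of the neighbours passed the limma test in brm-1 against Col.

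The set was last compared with the H3K27me3 lists of the same study, which rest on chromatin immunoprecipitation and not on these arrays. Of the 99 measured genes with a gain of H3K27me3 in brm-1, 0.741% of all measured genes, none was among the 43. None of the 6 measured genes with a loss of the mark, 0.0449% of all measured genes, was either. The 50 measured genes with less of it in brm-1 clf-29 than in brm-1 are all among the genes with a gain, so they add nothing. With lists this short, an absence from them says little about 43 genes. The study's longer list of all genes with the mark in Col was not used, so whether the 43 genes carry it was not examined.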

How the data were processed

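Each array was deposited as one column of log2 values, which the authors had computed from the scans with MAS5 and the affy package (versions: not given in the sources used here). On the linear scale each column had a 2% trimmed mean of about 500, and nothing else aligned the arrays, so every difference is relative to the rest of its array. Detection calls were not used.

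The platform annotation gave a single gene to 13513 of the 22810 probe sets, several to 503 and none to 8794. RefSeq's table for TAIR10.1, in which 13436 of the single genes were found, supplied names, chromosomes and gene order. The brightest probe set stood for the gene where there were several (146 genes). Sample titles gave the groups and the replicate numbers, and arrays of the same number were not treated as pairs.

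The fit ran over all 13356 genes in limma 3.58.1 under R 4.3.3, with 1 mean per genotype, a trended eBayes step, two-sided tests and Benjamini-Hochberg adjusted p-values called under 0.05. The script was first tested on simulated data. The methods of the study state a 1.5-fold criterion. Members and lists were chosen with earlier results of these data known. Members were ordered by the smaller of their differences, and the first 15 are given by array. The genes with a name, AT1G09310, and the genes singled out by replicate, by position or by brm-1 clf-29 against brm-1 were picked after their values were seen. Alternatives changed the scaling, the filters, the thresholds, the fit and the arrays. Promoters and proteins were not analysed here.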

Additional observations from a re-analysis of the deposited data

How the results depend on the processing

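The set of 43 genes depended on its thresholds more than on the scaling. It held 51 genes after quantile normalization (42 of the 43 among them) and 38 with an offset of 16 before log2 (36 shared), but 66 when each array was centred on its median (43 shared), which raised the median of all genes by 0.085 in brm-1 against Col and by 0.048 in brm-1 clf-29 against clf-29. It held 74 genes with no minimum level, 22 with a largest mean of at least 9, 7 with a threshold of 1, and 37 to 52 when each array was left out in turn (32 to 43 shared). No call in the interaction appeared under any alternative. In brm-1 clf-29 against brm-1 the count of 0 became 1 with a replicate block (AT4G28780, limma adjusted p = 0.0229), 2 with replicate 3 as a batch term (AT4G28780, adjusted p = 0.0142, and AT5G61660, adjusted p = 0.0391), and 0 to 1 when each array was left out (AT1G22570, adjusted p = 0.0423, without brm-1 clf-29 replicate 3). Same-numbered arrays correlated by over 0.1 in 3 of 6 pairs for replicate 3 and in none for replicates 1 and 2. All 6 pairs for replicate 3 lay between 0.082 and 0.1617. The main fit did not take the numbers as pairs, and so left what the arrays numbered 3 shared in the spread within genotypes. With no minimum level, the shares of genes that passed in the replicate left out were 30.8%, 24.8% and 20.6% for replicates 1, 2 and 3. Of all genes at any level, 5.22%, 4.19% and 4.84% passed in the same arrays. Dim probe sets limit the set: M17 rests on means under the background, and the clf-29 array numbered 3 of AT1G03020 lay under it. The promoter motifs planned as a result were not run, since promoter sequences were not used here.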

Other observations

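Outside the 43 genes, 52 probe sets with no gene name or with several met the same thresholds, so that 95 of 22810 probe sets did in all. They were not analysed by gene here. In the arrays numbered 3, the 43 genes had a median 0.08 below the other arrays in brm-1 clf-29 and 0.08 above them in Col, where 30 genes were higher and 13 lower, while over all genes the medians were 0.045 and 0.035. In brm-1 and clf-29 the medians of the 43 genes were -0.015 and 0.01.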
